A study of Mus musculus with 17 samples.

Results

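Ventricular cardiomyocytes from mice labelled as MBNL1 loss of function (KO) were compared after 4 h of actinomycin D and at 0 h, before the block. The comparison used the 6 KO libraries of these times, 3 at 4 h and 3 at 0 h, of 17 libraries in the study, taken by their labels. It covers 13230 genes with enough counts to test, of 55487 in the count table. The KO myocytes came from mice at postnatal day 60, were isolated by Langendorff perfusion with Liberase, settled 3 times in rising calcium and were plated on laminin for 3 h. The plating medium with serum was then exchanged for culture medium with albumin and actinomycin D at 2 µg/mL, and both KO and wild-type (WT) cells went through the same steps. WT cells at 4 h (2 libraries) and at 0 h (3 libraries) served to ask whether a change differed between the genotypes. The labels give neither the allele, the strain nor the sex, nor whether the libraries of a group came from separate mice, so p-values measure the spread between these libraries, which may be technical.

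Actinomycin D inserts into DNA and stops RNA polymerases, so that during the block each transcript is lost at the pace of its own decay. Transcripts of signalling and transcription factor genes are textbook examples of fast decay, often through AU-rich elements in the 3′ UTR, while those of contractile, ribosomal and metabolic proteins are textbook examples of slow decay. MBNL1 is a muscleblind RNA-binding protein that acts in splicing and in the stability of bound transcripts, and the study asked which transcripts depend on it for stability. All values here are shares of a library after scaling, in CPM, counts scaled to a common library size with TMM factors. A rise during the block is therefore a rise relative to other transcripts. Every library at 4 h had the block, so the block, the change of medium and the time in culture cannot be told apart.

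Library totals were 17539288 to 17798698 counts at 4 h and 17370744 to 17532629 counts at 0 h in KO cells, and mitochondrially encoded genes took 36 to 37.5% and 39.5 to 43.3% of them. Mbnl1 had 99.98, 99.96 and 105 CPM in KO cells at 4 h, against 103, 104 and 93.9 CPM at 0 h. The libraries overlapped, and the log2 fold change was 0.03 ± 0.05 (SE, adjusted p = 0.757). WT libraries had 92.9 and 91.3 CPM of Mbnl1 at 4 h and 88.8, 86.2 and 87.3 CPM at 0 h, so a count for the whole gene did not mark the KO label, and which part of the gene was changed is not in the labels. Its paralogue Mbnl2 had 155 ± 4.77 CPM (mean ± SD, n = 3) at 4 h, against 144 ± 6.44 CPM (n = 3) at 0 h, with 0.11 ± 0.05 (SE, adjusted p = 0.0903). Mbnl3 was counted 0 to 2 times per KO library and was not tested. Esr1, the oestrogen receptor alpha gene, had 37853 to 41185 counts in KO cells at 4 h and 39273 to 46057 at 0 h, against 0 to 3 in each WT library of these times. The labels name no transgene. In KO cells its level at 4 h did not differ from 0 h beyond the spread, at -0.08 ± 0.14 (SE, adjusted p = 0.738).

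Over all tested genes, 3293 (24.9%) differed between KO cells at 4 h and at 0 h by edgeR's quasi-likelihood test at an adjusted p of 0.05. Of these, 1787 (13.5%) were lower and 1506 (11.4%) were higher at 4 h. The counts of called genes in each group below are to be read against these shares. The falls were the deeper changes: 503 genes (3.8%) were called more than 2-fold lower and 52 more than 4-fold lower, against 15 (0.113%) called more than 2-fold higher, of which 0 reached a mean log2 CPM of 3. The median log2 fold change was -0.62 among genes called lower, 0.21 among genes called higher and -0.0037 among all tested genes. How many genes counted as higher turned on the scaling. Calls were 45.7% higher with TMM, 32.4% with library size alone (870 higher, 1814 lower) and 0.413% with ribosomal protein genes as the fixed point (19 higher, 4581 lower), where the median of all genes moved to -0.22. It was also 57.1% with no filter on low counts (1916 higher, 1438 lower), and 5.56% with the authors' ratios (108 higher, 1836 lower), for which the test and the pseudocount changed together with the scale. Another scaling of the libraries shifts the log2 fold changes of all genes together, so small rises below give only a standing relative to other transcripts.

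**Figure D1:**
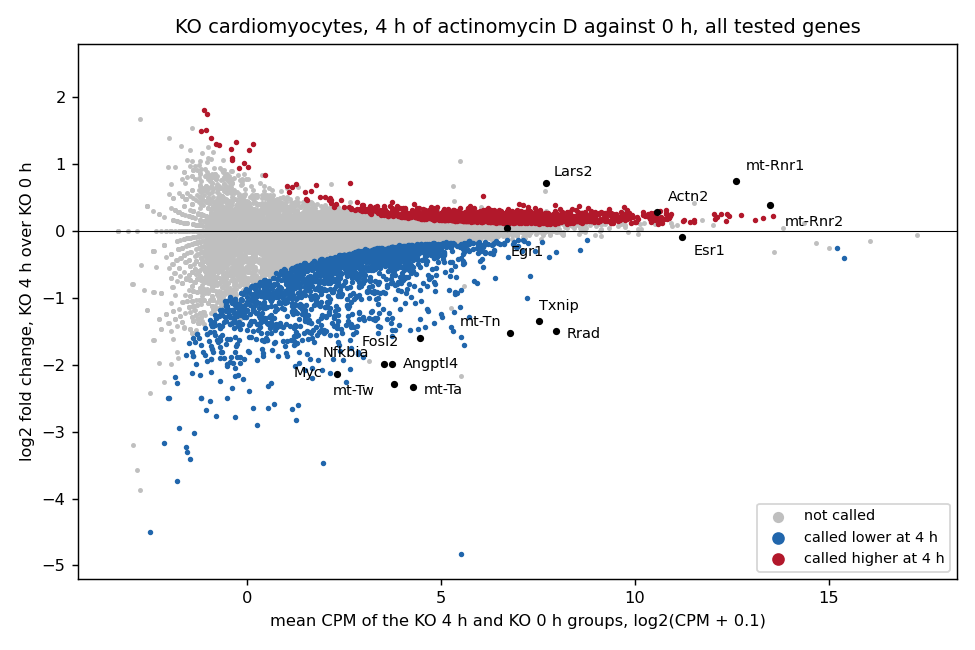
Log2 fold change of KO cells at 4 h over KO cells at 0 h (y axis) against the mean level of the pair of groups (x axis, log2(CPM + 0.1)) for the 13230 tested genes, with 3 libraries per time. Blue points are called lower, red points called higher and grey points not called, and falls reach further from 0 than rises.

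The steepest falls among the more abundant transcripts were in transfer RNAs encoded on mitochondrial DNA, which carry amino acids to the mitochondrial ribosome and are cut from long transcripts of each mitochondrial strand. Of the 15 named largest falls, 6 were mitochondrial tRNA genes: mt-Ta, mt-Tw, mt-Ty, mt-Tc, mt-Tn and mt-Tm. The 5 that lie side by side on the mitochondrial genome (GRCm38, GENCODE M21) are printed here because they fell together, each 5′ to 3′ on its own strand with the anticodon in capitals. They are mt-Tw (chrM:4950-5016, forward strand) and, on the reverse strand, mt-Ta (chrM:5018-5086), mt-Tn (chrM:5089-5159), mt-Tc (chrM:5192-5257) and mt-Ty (chrM:5260-5326).
mt-Tw: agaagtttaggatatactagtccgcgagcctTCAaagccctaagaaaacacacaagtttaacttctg
mt-Ta: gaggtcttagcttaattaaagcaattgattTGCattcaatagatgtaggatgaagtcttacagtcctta
mt-Tn: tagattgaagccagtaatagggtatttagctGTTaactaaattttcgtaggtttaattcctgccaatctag
mt-Tc: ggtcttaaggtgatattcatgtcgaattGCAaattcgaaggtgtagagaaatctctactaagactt
mt-Ty: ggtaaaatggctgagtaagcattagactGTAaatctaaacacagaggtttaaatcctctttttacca

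The alanine tRNA gene mt-Ta had 5.23, 6.78 and 7.32 CPM in KO cells at 4 h, against 31.7, 34.4 and 30.9 CPM at 0 h. The tryptophan tRNA gene mt-Tw had 4.66, 4.44 and 4.9996 CPM in KO cells at 4 h, against 22.8, 25.4 and 20.5 CPM at 0 h. For both, every library at 4 h lay far below every library at 0 h, as it did for 19.9% of all tested genes (38.5% in either direction), with -2.33 ± 0.15 (SE, adjusted p = 4.96e-09) for mt-Ta and -2.28 ± 0.10 (SE, adjusted p = 7.05e-28) for mt-Tw. The tyrosine tRNA gene mt-Ty had 21.2, 24.6 and 21.6 CPM in KO cells at 4 h, against 76.4, 76.7 and 65.6 CPM at 0 h, at -1.70 ± 0.08 (SE, adjusted p = 1.16e-15). The cysteine and asparagine tRNA genes between them were lower as well, mt-Tc at -1.58 ± 0.19 (SE, adjusted p = 7.26e-05) and mt-Tn at -1.53 ± 0.17 (SE, adjusted p = 3.11e-05). Methionine tRNA mt-Tm (chrM:3845-3913, forward strand) stood at 20.8 ± 1.704 CPM (mean ± SD, n = 3) at 4 h, against 58.5 ± 12.8 CPM (n = 3) at 0 h, or -1.49 ± 0.21 (SE, adjusted p = 0.000245) as log2 fold change. The glutamate tRNA mt-Te, on the reverse strand elsewhere in the genome, had 107, 88.2 and 102 CPM in KO cells at 4 h, against 161, 226 and 207 CPM at 0 h and fell by 1.0 on the log2 scale. Of the 16 mitochondrial tRNA genes with enough counts, 15 were called lower (93.8%), with a median log2 fold change of -1.64, against 13.5% of all tested genes. The exception was mt-Tp, which was not called. Whole tRNAs are shorter than the fragments of a usual mRNA library, and whether a read crossing into a neighbouring gene was counted is not given, so these values are levels of reads assigned to the tRNA genes.

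The 2 mitochondrial ribosomal RNAs, encoded on the forward strand like mt-Tw and mt-Tm, went the other way. The small subunit RNA mt-Rnr1 had 7597, 7790.2 and 8119.9 CPM in KO cells at 4 h, against 4409.5, 4967 and 4550.1 CPM at 0 h, and 0.76 ± 0.05 (SE, adjusted p = 7.9e-20) made it the largest named rise. The large subunit RNA mt-Rnr2 had 12642, 12806 and 13361 CPM in KO cells at 4 h, against 9419, 10474 and 9587 CPM at 0 h, at 0.40 ± 0.05 (SE, adjusted p = 2.23e-09). For both, all 3 libraries at 4 h lay above all 3 at 0 h, and both calls held in every alternative run. Lars2, the gene of the mitochondrial leucyl-tRNA synthetase, had 280.1, 261 and 237 CPM in KO cells at 4 h, against 162, 149 and 162 CPM at 0 h, with no overlap and 0.72 ± 0.09 (SE, adjusted p = 0.00013). Its annotated transcripts shared no run longer than 14 bases with mt-Rnr1 or 12 bases with mt-Rnr2. Only these 2 RNAs were compared, and how reads with several matches were counted is not given. The cause of the rise of Lars2 was not tested. Mitochondrial mRNAs moved less by their median: of 13 tested, 0 were called higher and 4 lower, with a median log2 fold change of -0.30. The clearest call was mt-Nd3, with means of 32.1 CPM at 4 h and 58.9 CPM at 0 h, no overlap and -0.87 ± 0.13 (SE, adjusted p = 0.000292). mt-Co2, mt-Co3, mt-Atp6 and mt-Nd4l had mean levels of only 3.60 to 74.2 CPM. They were not called, at -1.15, 0.68, -2.17 and -1.94, with SE of 0.67 to 0.92. The complex I subunit mRNA mt-Nd5 had 36742 ± 2685 CPM (mean ± SD, n = 3) at 4 h, against 48391 ± 5193 CPM (n = 3) at 0 h (log2 fold change -0.40 ± 0.10 (SE, adjusted p = 0.0133)), and mt-Co1, a cytochrome c oxidase subunit and the most abundant of those named, 155881 ± 6156 CPM (mean ± SD, n = 3) at 4 h, against 162229 ± 10931 CPM (n = 3) at 0 h (-0.06 ± 0.06 (SE, adjusted p = 0.503)). The call for mt-Atp8, at -4.83 ± 1.54 (SE, adjusted p = 0.0394), rested on 1 library: KO replicate 3 at 0 h had 256 CPM against 2.09 and 7.68 CPM in the other libraries at 0 h and 1.88, 3.97 and 3.51 CPM at 4 h. Without it the log2 fold change was -0.63 (adjusted p = 0.688).

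Among nuclear genes, many transcripts of transcription factors and signalling feedback genes fell. Of 35 tested immediate early and stress-induced transcription factor genes, 24 were called lower and 0 higher (68.6% lower, against 13.5% of all tested genes), with a median log2 fold change of -0.56. Fosl2, an AP-1 subunit, had 9.71, 12.1 and 10.4 CPM in KO cells at 4 h, against 30.03, 34.2 and 33.8 CPM at 0 h. The 2 times were well apart, and the log2 fold change was -1.60 ± 0.08 (SE, adjusted p = 1.42e-25). Myc, the growth-promoting transcription factor, was at a lower level, with 2.22, 1.64 and 1.55 CPM in KO cells at 4 h, against 7.32, 7.797 and 8.71 CPM at 0 h and -2.13 ± 0.15 (SE, adjusted p = 2.79e-18). Klf4, Klf6, Csrnp1 and Cebpd, all transcription factor genes, fell by 0.92, 0.91, 1.22 and 1.5 on the log2 scale. Junb had 29.5, 28.1 and 27.1 CPM in KO cells at 4 h, against 48.8, 53.2 and 56.6 CPM at 0 h, at -0.90 ± 0.06 (SE, adjusted p = 7.63e-19). Atf3, a stress-induced ATF factor, had 25.9, 26.8 and 24.3 CPM in KO cells at 4 h, against 48.3, 43.8 and 49.95 CPM at 0 h, at -0.88 ± 0.07 (SE, adjusted p = 9.72e-17).

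Several of the best known immediate early transcripts were not among the calls. Egr1, a zinc finger factor and the most abundant member of the list, had 111, 104 and 104 CPM in KO cells at 4 h, against 101, 102 and 105 CPM at 0 h. The libraries of the times overlapped, and the log2 fold change was 0.05 ± 0.05 (SE, adjusted p = 0.471). Fos had 44.9, 39.3 and 42.7 CPM in KO cells at 4 h, against 40.8, 36.6 and 37.8 CPM at 0 h, again overlapping, at 0.14 ± 0.06 (SE, adjusted p = 0.0746). Jun had 45.4, 41.4 and 40.8 CPM in KO cells at 4 h, against 44.6, 44.1 and 46.1 CPM at 0 h, at -0.08 ± 0.06 (SE, adjusted p = 0.372). Ier2 stood at 11.2 ± 0.695 CPM (mean ± SD, n = 3) at 4 h, against 12.2 ± 1.101 CPM (n = 3) at 0 h and -0.12 ± 0.09 (SE, adjusted p = 0.376). Their standing depended on the scale: with ribosomal protein genes as the fixed point Jun (-0.30, adjusted p = 0.00166) and Ier2 (-0.34, adjusted p = 0.00748) were called lower and Fos (-0.08) and Egr1 (-0.17) were not, while Fos was called higher with RLE factors (0.15, adjusted p = 0.0473). Within each scaling, Fosl2, Junb and Atf3 fell further than Fos, Egr1 and Jun. In WT cells Egr1 changed by -0.20 (adjusted p = 0.00214) and Fos by -0.10 (adjusted p = 0.234), and the difference between the KO and WT changes of Egr1 was not called (0.26, adjusted p = 0.116).

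Genes that damp signalling fell in several pathways. Nfkbia, the inhibitor that holds NF-κB in the cytoplasm, had 4.37, 4.79 and 4.58 CPM in KO cells at 4 h, against 20.2, 16.6 and 17.7 CPM at 0 h. Its levels at 4 h were 3.97-fold lower, at -1.99 ± 0.11 (SE, adjusted p = 3.8e-23). Of 15 tested feedback genes of the MAP kinase pathway, 9 were called lower and 0 higher, with a median log2 fold change of -0.42. Among them, the dual-specificity phosphatases Dusp5, Dusp6 and Dusp1 fell by 1.35, 1.30 and 0.43, and Spry1, an inhibitor of receptor tyrosine kinase signalling, by 1.42. In the BMP and TGF-β group 11 of 21 tested genes were lower and 1 higher (median -0.25). Id2, an inhibitor of basic helix-loop-helix factors induced by BMP, had 5.28, 5.09 and 5.36 CPM in KO cells at 4 h, against 12.7, 14.9 and 17.7 CPM at 0 h, with -1.52 ± 0.21 (SE, adjusted p = 0.000119), and Id1 and Id3 fell by 1.65 and 1.4. The inhibitory Smad7 stood at 2.29 ± 0.265 CPM (mean ± SD, n = 3) at 4 h, against 7.94 ± 0.518 CPM (n = 3) at 0 h, at -1.79 ± 0.15 (SE, adjusted p = 1.05e-15). The receptor Bmpr2 was the member called higher, at 0.26 ± 0.06 (SE, adjusted p = 0.000331). Its call was lost with ribosomal protein scaling (0.04, adjusted p = 0.74) and under the authors' ratios (0.16, adjusted p = 0.223).

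In the interleukin-6 family group 5 of 23 tested genes were lower and 3 higher (median -0.11), against 13.5% lower and 11.4% higher of all tested genes. The feedback inhibitor Socs3 had 12.4, 11.98 and 14.1 CPM in KO cells at 4 h, against 34.4, 33.1 and 36.7 CPM at 0 h, at -1.44 ± 0.07 (SE, adjusted p = 3.19e-25), and the kinase genes Pim3 and Pim1 fell by 1.14 and 0.89. Il6st, the shared receptor subunit gp130, had 143, 139 and 133 CPM in KO cells at 4 h, against 124, 125 and 123 CPM at 0 h, at 0.16 ± 0.05 (SE, adjusted p = 0.0138), and this call was lost with library size alone, without KO replicate 1 at 4 h and under the authors' ratios (0.02, adjusted p = 0.903), and turned to -0.06 with ribosomal protein scaling. In the p53 group 10 of 24 were lower and 3 higher (median -0.20), the higher ones near the 11.4% of all tested genes. The growth arrest gene Gadd45b stood at 6.86 ± 0.803 CPM (mean ± SD, n = 3) at 4 h, against 15.4 ± 0.611 CPM (n = 3) at 0 h and -1.16 ± 0.11 (SE, adjusted p = 2.52e-13), while its paralogue Gadd45a stood at 22.4 ± 1.57 CPM (mean ± SD, n = 3) at 4 h, against 18.96 ± 0.753 CPM (n = 3) at 0 h and 0.24 ± 0.07 (SE, adjusted p = 0.00842). Gadd45a was not called without KO replicate 3 at 4 h (0.19, adjusted p = 0.0875). Its call was also lost with ribosomal protein scaling (0.02, adjusted p = 0.897) and under the authors' ratios (0.09, adjusted p = 0.5).

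**Figure D2:**
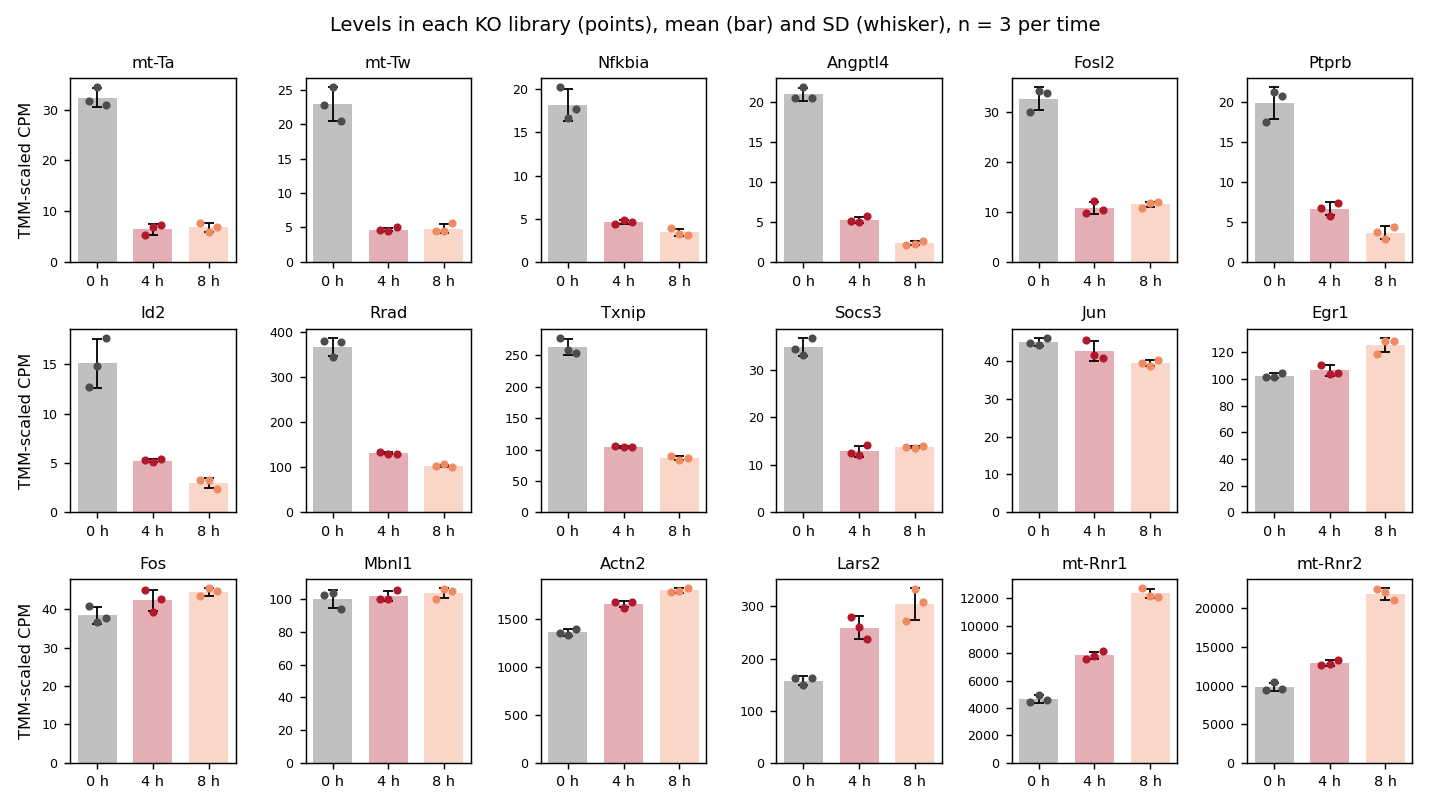
Levels of 18 named transcripts in each KO library at 0, 4 and 8 h of actinomycin D (points, TMM-scaled CPM), with the mean as a bar from 0 and the SD as a whisker, n = 3 per time. Levels of Rrad and Txnip at 4 h lie far below those at 0 h, while Fos, Egr1, Jun and Mbnl1 show overlapping or near levels and mt-Rnr1 and mt-Rnr2 lie higher.

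Several genes of cardiomyocyte regulation and metabolism were among the falls. Rrad, a small GTP-binding protein that restrains L-type calcium channels, was the most abundant of the 15 named largest falls. It had 133, 129.9 and 129 CPM in KO cells at 4 h, against 378, 343 and 378 CPM at 0 h. The libraries of a time lay within a narrow range, and the fold change was -1.49 ± 0.05 (SE, adjusted p = 2.32e-36), 2.8-fold lower at 4 h. Txnip, an arrestin family protein that limits glucose uptake and binds thioredoxin, had 106, 104 and 103 CPM in KO cells at 4 h, against 278, 259 and 254 CPM at 0 h, at -1.34 ± 0.05 (SE, adjusted p = 4.66e-34). Angptl4, a secreted inhibitor of lipoprotein lipase, had 5.17, 4.97 and 5.71 CPM in KO cells at 4 h, against 20.6, 21.9 and 20.5 CPM at 0 h, at -1.99 ± 0.10 (SE, adjusted p = 4.12e-26). Xirp1, a Xin repeat protein of the intercalated disc, had 124, 116 and 124 CPM in KO cells at 4 h, against 195, 192 and 193 CPM at 0 h, at -0.67 ± 0.05 (SE, adjusted p = 1.77e-19).

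Of 25 tested cardiac transcription factor genes, 10 were lower and 2 higher (median -0.18). Gata4 had 56.9, 54.1 and 51.8 CPM in KO cells at 4 h, against 68.2, 67.7 and 69.05 CPM at 0 h, and Gata6 28.8 ± 0.797 CPM (mean ± SD, n = 3) at 4 h, against 37.1 ± 0.8401 CPM (n = 3) at 0 h. These were modest falls with no overlap between the times for Gata4, at -0.33 ± 0.06 (SE, adjusted p = 3.55e-05) for Gata4 and -0.36 ± 0.07 (SE, adjusted p = 2.63e-05) for Gata6. Tbx5 fell by 0.39 and Tbx3, a factor of the conduction system, by 1.19. Tead1 was called higher, at 0.27 ± 0.05 (SE, adjusted p = 5.8e-06). This call was lost with ribosomal protein scaling (0.05, adjusted p = 0.589) and under the authors' ratios (0.17, adjusted p = 0.138). In the calcium and channel group 12 of 34 genes were higher and 8 lower (median 0.07). With ribosomal protein scaling 0 were higher and 14 lower (median -0.15), and the median was -0.05 with the authors' ratios. Of all 13230 tested genes, 19 were higher and 4581 lower under that scaling, with a median of -0.22, below that of the group. The potassium channel genes Kcna5 and Kcnj2 fell by 1.55 and 0.66, and Jph2, which ties the sarcoplasmic reticulum to the T-tubule, had 226, 219 and 218 CPM in KO cells at 4 h, against 269, 265 and 288 CPM at 0 h, at -0.31 ± 0.04 (SE, adjusted p = 2.08e-08). The calcium pump gene Atp2a2 stood at 12903 ± 154 CPM (mean ± SD, n = 3) at 4 h, against 10970.2 ± 234 CPM (n = 3) at 0 h, at 0.23 ± 0.04 (SE, adjusted p = 1.72e-05). Its call was lost with ribosomal protein scaling (0.01, adjusted p = 0.905) and under the authors' ratios (0.13, adjusted p = 0.131).

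Sarcomere transcripts were called higher more often than lower. Of 33 tested, 19 were called higher (57.6%, against 11.4% of all tested genes) and 2 lower, with a median log2 fold change of 0.16. Actn2, the α-actinin of the Z disc, had 1676, 1619 and 1672 CPM in KO cells at 4 h, against 1358, 1327 and 1399 CPM at 0 h, with no overlap and 0.28 ± 0.04 (SE, adjusted p = 6.33e-08). Tnnt2, cardiac troponin T, stood at 5742 ± 452 CPM (mean ± SD, n = 3) at 4 h, against 4811 ± 137 CPM (n = 3) at 0 h and 0.26 ± 0.05 (SE, adjusted p = 0.000321). Titin (Ttn) stood at 3332 ± 248 CPM (mean ± SD, n = 3) at 4 h, against 2485 ± 326 CPM (n = 3) at 0 h and was not called, at 0.42 ± 0.20 (SE, adjusted p = 0.153). The median of the group turned to -0.06 when ribosomal protein genes were the fixed point, a scaling that also ended the calls of Actn2 and Tnnt2, as the authors' ratios did. The regulatory genes above, Rrad, Txnip, Angptl4 and Xirp1, kept their calls under every alternative.

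Of 77 nuclear-encoded oxidative phosphorylation genes, 55 were called higher (71.4%) and 0 lower, with a median of 0.23. Cox7a1, the muscle form of a cytochrome c oxidase subunit, had 409, 423 and 444 CPM in KO cells at 4 h, against 311, 317 and 357 CPM at 0 h, at 0.37 ± 0.07 (SE, adjusted p = 0.00106). Of 81 ribosomal protein genes, 46 were higher (56.8%) and 0 lower (median 0.22). Rplp2, of the ribosomal stalk, had 151, 159 and 157 CPM in KO cells at 4 h, against 111, 115 and 129 CPM at 0 h, at 0.39 ± 0.05 (SE, adjusted p = 9.23e-08). It was not called under the authors' ratios (0.25, adjusted p = 0.0665). Fatty acid oxidation genes had 17 of 28 higher and 1 lower (median 0.18). With ribosomal proteins as the fixed point the medians were -0.003 for ribosomal proteins themselves, -0.04 for fatty acid oxidation and -0.07 for glycolysis, so these groups are called neither stable nor rising on an absolute scale. The nuclear oxidative phosphorylation median was 0.0084 there, with 1 gene called higher and 1 lower.

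Of 29 glycolysis and glycogen genes, 19 were higher and 4 lower (median 0.15). Pkm, pyruvate kinase, had 1412, 1391 and 1440.5 CPM in KO cells at 4 h, against 1189.6, 1153 and 1199 CPM at 0 h, at 0.26 ± 0.04 (SE, adjusted p = 1.29e-07). Its call was lost with ribosomal protein scaling (0.04, adjusted p = 0.637). The lower members included Pfkfb3 and Pfkfb1, which set the level of the allosteric activator of phosphofructokinase, at -1.43 ± 0.18 (SE, adjusted p = 3.26e-09) and -0.54 ± 0.15 (SE, adjusted p = 0.00434), and Ppp1r3c, a glycogen-targeting subunit of protein phosphatase 1, at -0.42 ± 0.06 (SE, adjusted p = 3.41e-08). Pfkfb1 was not called without KO replicate 1 at 0 h (adjusted p = 0.0511). Of 28 chaperone genes in the heat shock group, 10 were higher and 5 lower (median 0.11), against 11.4% higher and 13.5% lower of all tested genes. The inducible Hspa1a and Hspa1b fell by 1.01 and 0.90 and their co-chaperone Dnajb1 by 0.62, while Hsp90ab1, the constitutive cytosolic HSP90, stood at 1008 ± 14.4 CPM (mean ± SD, n = 3) at 4 h, against 838 ± 27.05 CPM (n = 3) at 0 h and 0.27 ± 0.04 (SE, adjusted p = 1.47e-07). The heat shock median turned to -0.11 with ribosomal protein scaling. The call of Hsp90ab1 was lost there (0.05, adjusted p = 0.588) and under the authors' ratios (0.17, adjusted p = 0.123). Mt2, a metallothionein that binds zinc, had 15.1, 16.4 and 14.4 CPM in KO cells at 4 h, against 10.9, 10.8 and 12.2 CPM at 0 h, at 0.44 ± 0.10 (SE, adjusted p = 0.000957). The other named rises were Copz2, Kptn, Svbp, Rpl39, Atp5k and Ndufb1-ps, at 0.37 to 0.40. Mt2 and all of these but Ndufb1-ps were not called with ribosomal protein scaling. Leaving out KO replicate 3 at 4 h also ended the call of Svbp (adjusted p = 0.07). That of Atp5k was lost with only the compared groups (adjusted p = 0.0693) and without KO replicate 1 at 0 h or replicate 2 or 3 at 4 h. Under the authors' ratios Kptn, Svbp, Atp5k and Ndufb1-ps were not called.

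In the unfolded protein and ATF4 response group 7 of 25 genes were lower and 4 higher (median -0.05), against 13.5% lower and 11.4% higher of all tested genes. Its steepest fall was Chac1, which breaks down glutathione, with 1.53, 1.93 and 2.56 CPM in KO cells at 4 h, against 10.03, 9.12 and 9.52 CPM at 0 h and -2.25 ± 0.17 (SE, adjusted p = 8.72e-17). Ppp1r15a, which restores translation after stress, fell by 0.58. Circadian genes had 5 of 19 lower and 0 higher (median -0.06), among them the repressor Nr1d1 at 44.6 ± 2.01 CPM (mean ± SD, n = 3) at 4 h, against 76.5 ± 4.61 CPM (n = 3) at 0 h and -0.78 ± 0.07 (SE, adjusted p = 4.9e-14). In the atrophy and FoxO group 8 of 17 were lower and 2 higher (median -0.26). Foxo1 fell by 1.02, Arrdc3 by 1.38 and the muscle ubiquitin ligase Fbxo32 by 0.30. Of 292 tested zinc finger genes named Zfp, 72 were lower (24.7%) and 2 higher (median -0.27).

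In noncoding and histone groups the shares called were near those of all tested genes or rested on few members. Of 12 tested long noncoding RNA genes, 2 were lower (16.7%, against 13.5% of all tested genes) and 0 higher (median -0.18). Malat1, a nuclear RNA of speckles, had 248, 298 and 196 CPM in KO cells at 4 h, against 191, 162 and 136 CPM at 0 h. All libraries at 4 h lay above those at 0 h, but the spread was wide and it was not called by edgeR, at 0.60 ± 0.21 (SE, adjusted p = 0.0625), while it was called by DESeq2 (0.61, adjusted p = 0.0242) and without KO replicate 3 at 4 h (0.74, adjusted p = 0.0388). Of 15 hosts of small nucleolar RNAs, 3 were higher and 2 lower (median 0.00156, which was below 0 in 11 of the alternatives, at -0.02 with library size alone). Of 16 histone genes, 3 were higher (18.8%, against 11.4% of all tested genes) and 1 lower, the lower one being H3f3b of replication-independent H3.3 at -0.49 ± 0.06 (SE, adjusted p = 1.64e-09). The median of the histone genes was 0.10, and -0.12 with ribosomal protein scaling.

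Genes whose proteins act on RNA were counted in 4 groups. Among 29 AU-rich element binding and related regulators, 10 were lower and 1 higher (median -0.10). Zfp36, which recruits deadenylases to AU-rich elements, had 15.8, 15.1 and 14.6 CPM in KO cells at 4 h, against 21.7, 22.97 and 24.9 CPM at 0 h, at -0.61 ± 0.08 (SE, adjusted p = 2.3e-09), and its relatives Zfp36l1 and Zfp36l2 fell by 0.65 and 0.86. The endonuclease gene Zc3h12a stood at 1.42 ± 0.148 CPM (mean ± SD, n = 3) at 4 h, against 2.79 ± 0.44996 CPM (n = 3) at 0 h and -0.98 ± 0.21 (SE, adjusted p = 0.00025). Of 56 decay machinery genes, 3 were lower and 3 higher (median 0.02), shares of 5.36% each against 13.5% and 11.4% of all tested genes. With ribosomal protein scaling 21 were lower and 0 higher (median -0.20), and the median was -0.08 with the authors' ratios. Under that scaling 4581 of all 13230 tested genes were lower and 19 higher (median -0.22), so the group lay near all genes. The decapping factors Edc3 and Dcp1a fell by 0.75 and 0.47, and Lsm4, of the ring that binds the ends of deadenylated mRNA, stood at 22.9 ± 0.923 CPM (mean ± SD, n = 3) at 4 h, against 18.8 ± 1.92 CPM (n = 3) at 0 h and 0.28 ± 0.08 (SE, adjusted p = 0.00801). The calls of Dcp1a and Lsm4 were each lost without 1 library, Dcp1a without KO replicate 1 at 0 h or replicate 2 at 4 h and Lsm4 without KO replicate 2 at 0 h or replicate 3 at 4 h. That of Lsm4 was also lost with ribosomal protein scaling (0.06, adjusted p = 0.654) and under the authors' ratios (0.15, adjusted p = 0.365). Among 16 tested MBNL, CELF, RBFOX, PTB and other splicing regulators, 4 were lower and 1 higher, against 13.5% and 11.4% of all tested genes. Their median of 0.06 turned to -0.16 with ribosomal protein scaling and to -0.05 with the authors' ratios. Ptbp1, Ptbp3 and Ptbp2, the polypyrimidine tract binding proteins, fell by 0.89, 0.77 and 0.39, and Rbm20, a splicing factor of titin, by 0.23. Rbm24 was called higher, at 0.19 ± 0.05 (SE, adjusted p = 0.00178). It was not called with ribosomal protein scaling (-0.04, adjusted p = 0.729) or under the authors' ratios (0.08, adjusted p = 0.415). SR and hnRNP genes had 5 lower and 5 higher of 31 (median -0.01), near the 13.5% lower and 11.4% higher of all tested genes. Clk1, a kinase that phosphorylates SR proteins, had 26.4, 28.6 and 31.1 CPM in KO cells at 4 h, against 45.8, 45.4 and 46.03 CPM at 0 h, at -0.67 ± 0.06 (SE, adjusted p = 5.95e-13).

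**Figure D3:**
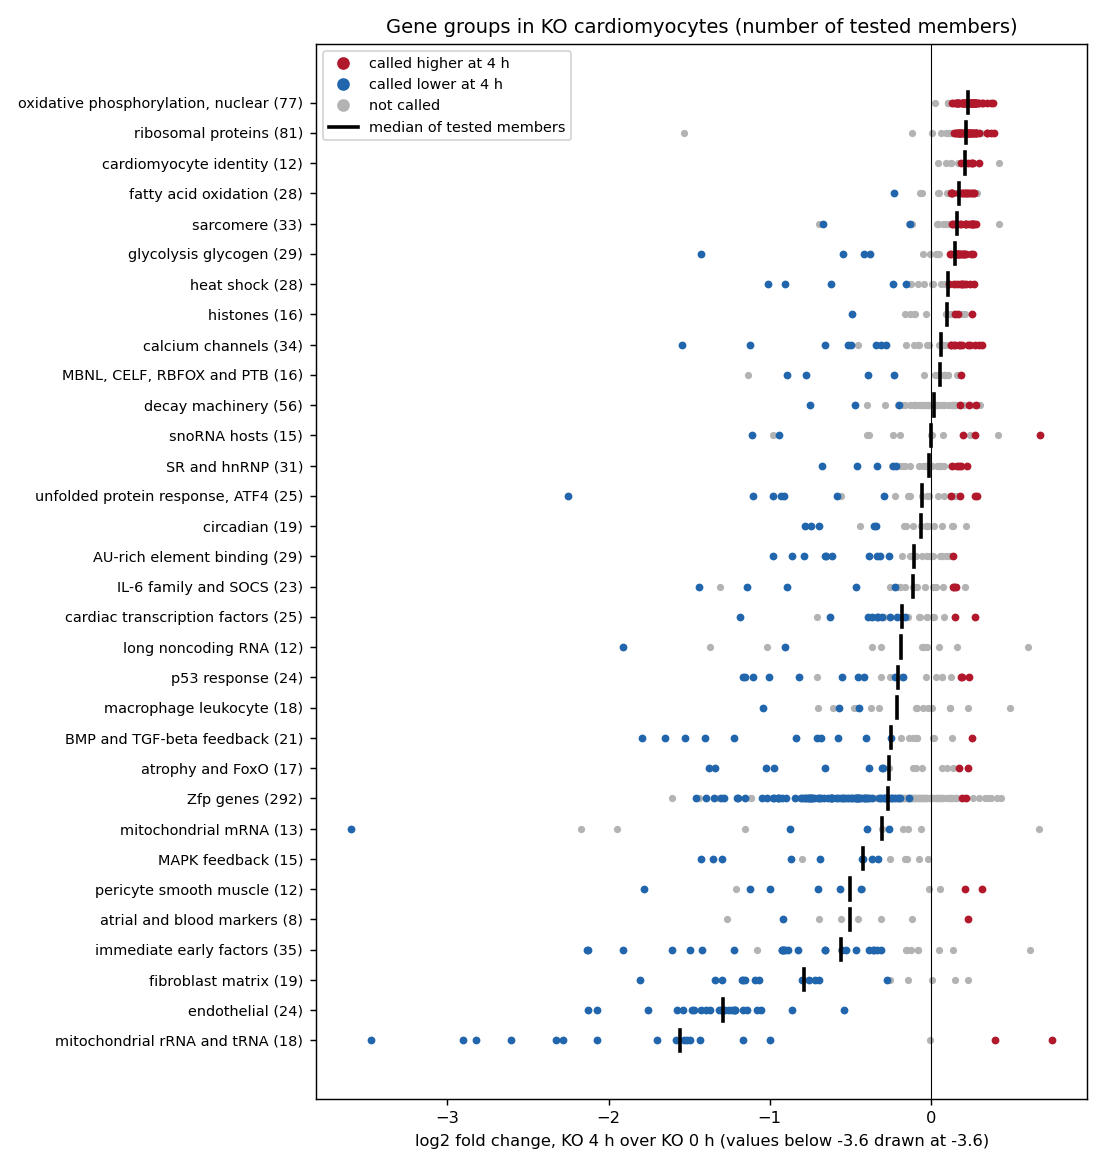
Log2 fold change of KO cells at 4 h over KO cells at 0 h for each tested member of 32 gene groups, with the number tested in brackets and the median as a black bar. Mitochondrial tRNA and endothelial genes lie lowest, immediate early factors spread below 0, and oxidative phosphorylation and ribosomal protein genes cluster just above 0.

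A set of the steepest falls was in genes used as markers of cells other than cardiomyocytes. All 24 tested endothelial marker genes were called lower and 22 of them more than 2-fold, with a median log2 fold change of -1.29. Their summed level was 211 to 218 CPM at 4 h, against 498 to 567 CPM at 0 h in KO cells, and 0 of the 24 were at 0 in all libraries. Kdr, a receptor for vascular endothelial growth factor, had 10.1, 11.3 and 12.02 CPM in KO cells at 4 h, against 29.1, 30.9 and 32.4 CPM at 0 h, at -1.47 ± 0.08 (SE, adjusted p = 2.59e-23). Ptprb, the vascular endothelial phosphatase, had 6.76, 5.79 and 7.38 CPM in KO cells at 4 h, against 17.5, 21.2 and 20.7 CPM at 0 h, at -1.58 ± 0.10 (SE, adjusted p = 1.15e-20). Cdh5, the cadherin of endothelial junctions, had 14.4, 14.8 and 14.2 CPM in KO cells at 4 h, against 28.6, 27.9 and 33.4 CPM at 0 h, at -1.05 ± 0.08 (SE, adjusted p = 1.3e-17). None of the 3 overlapped between times. Podxl, Xdh and Cxcl12, which endothelial and other stromal cells also express, fell by 1.48, 1.48 and 1.47.

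Of 19 tested fibroblast and matrix genes, 13 were lower and 0 higher (median -0.79), with summed levels of 73.8 to 83.0 CPM at 4 h and 92.5 to 102 CPM at 0 h. The most abundant member, Pcolce, had means of 28.4 CPM at 4 h and 25.6 CPM at 0 h. Neither Pcolce (0.15, adjusted p = 0.0976) nor Fbln1 (0.23, adjusted p = 0.0934) was called. Some of the deepest falls were at low levels, as in Mfap5 (0.154 CPM at 4 h, 0.556 at 0 h) and Col6a3 (0.232 and 0.599). The calls of Mfap5 and Col1a1 were lost in several alternatives. Vim, the intermediate filament vimentin, had 9.32, 8.89 and 8.87 CPM in KO cells at 4 h, against 13.4, 15.5 and 15.7 CPM at 0 h, at -0.72 ± 0.10 (SE, adjusted p = 2.42e-08). Pericyte and smooth muscle genes had 6 of 12 lower and 2 higher (median -0.50), led in depth by Pdgfrb at 0.657 ± 0.3403 CPM (mean ± SD, n = 3) at 4 h, against 2.28 ± 0.206 CPM (n = 3) at 0 h and -1.78 ± 0.28 (SE, adjusted p = 9.27e-07). The 2 higher ones were by far the most abundant members. Des had means of 1731 CPM at 4 h and 1493 CPM at 0 h (0.21, adjusted p = 2.68e-05). Abcc9 had 393 and 316 CPM (0.32, adjusted p = 1.36e-05). The call of Abcc9 was lost with ribosomal protein scaling (0.10, adjusted p = 0.334) and under the authors' ratios (0.16, adjusted p = 0.229). Of 18 macrophage and leukocyte genes, 3 were lower (16.7%, near the 13.5% of all tested genes) and 0 higher (median -0.21), and DESeq2 called 0 of them, with summed levels of 42.8 to 48.3 CPM at 4 h and 51.6 to 56.3 CPM at 0 h. The 12 cardiomyocyte identity genes had 6 higher and 0 lower (median 0.21, and -0.008 with ribosomal protein scaling). They summed to 86439 to 90433 CPM at 4 h and 74370.5 to 82457 CPM at 0 h, so the labelled cell type made up the bulk of the marker level at both times. The 8 tested markers of atrial, erythroid and Schwann cells had 1 higher and 1 lower (median -0.50). In RNA from a whole culture, fewer cells of a type and less RNA per cell cannot be told apart. The part that a lower share of other cell types had in falls of genes shared with those cells was not tested.

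The 3′ UTR of a transcript was compared with its call. Of the tested genes, 11858 (89.6%) had an annotated 3′ UTR in GENCODE M21. The AU-rich pentamer ATTTA, heptamer TATTTAT and nonamer TTATTTATT were searched on the transcript strand, each held in the next. The heptamer stood in 3332 of these genes (28.1%). Of genes with at least 1 heptamer, 18.8% were called lower and 9.75% higher, against 12.9% lower and 13.2% higher without a copy. Called-lower shares with and without a copy were 16.5 and 10.6% for the pentamer, and 19.4 and 14.2% for the nonamer. For 1, 2 and 3 or more nonamers they were 20.1, 15.5 and 18%. Fosl2, Cxcl12 and Nfkbia are shown because they are among the named largest falls and hold the heptamer. Each is 30 bases of the GRCm38 3′ UTR, with the heptamer or the nonamer TTATTTATT that holds it in capitals: Fosl2 at chr5:32156871-32156900 on the forward strand, Cxcl12 at chr6:117176367-117176396 on the forward strand and Nfkbia at chr12:55489607-55489636 on the reverse strand.
Fosl2: atttattttaTTATTTATTttaaatgttta
Cxcl12: accagctgctgTATTTATgtgcttcataag
Nfkbia: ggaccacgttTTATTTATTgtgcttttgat

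Length moved with the heptamer. Called-lower shares were 7.66, 14.2, 16.7 and 19.6% in 4 equal classes of 3′ UTR length, shortest to longest, while called-higher shares were 16.1, 12.6, 10.4 and 9.95%. Within these classes, genes with and without the heptamer were called lower in 9.09 and 7.57%, 17.2 and 13.5%, 20.8 and 14.7%, and 19.1 and 20.2%, shortest to longest. The called-lower share with the heptamer was thus higher in the first 3 classes, in the shortest with 15 of 165 genes, and lower in the longest. Called falls of more than 2-fold made up 4.5% of genes with the heptamer and 3.72% of those without. By class these shares were 1.21 and 2.61%, 4.94 and 4.34%, 5.95 and 4.03%, and 3.83 and 4.47%. These are shares over genes, with no test, and a motif match is not a sign of a bound factor.

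**Figure D4:**
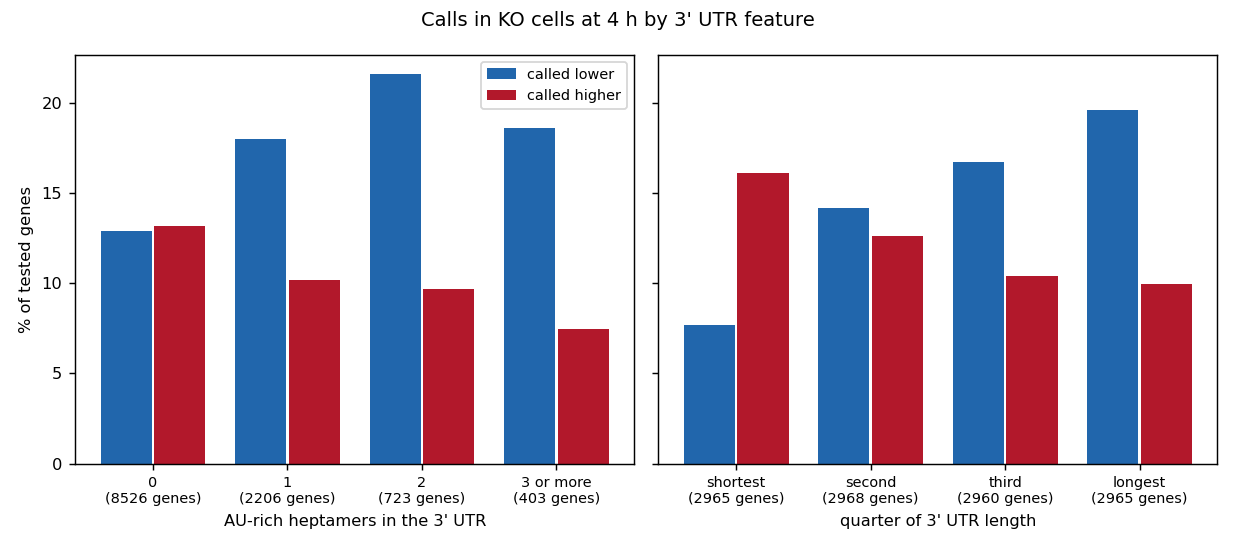
Percentage of tested genes called lower (blue) and called higher (red) in KO cells at 4 h against 0 h, by number of AU-rich heptamers in the 3′ UTR (left) and by class of 3′ UTR length (right), with gene numbers under the bars. The called-lower share is 12.9% with 0 copies and 18 to 21.6% with more, and climbs from the shortest to the longest class.

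The early change in KO cells was then set beside that in WT cells, to ask which transcripts changed differently. In WT cells 3777 genes (28.5%) were called, 2106 higher (15.9%) and 1671 lower (12.6%). Genes called lower in both genotypes numbered 1050, which is 58.8% of those lower in KO and 62.8% of those lower in WT. Genes called higher in both numbered 1118, 74.2% of KO and 53.1% of WT calls. All 2168 genes called in both had the same direction. The test of the difference between the changes (the interaction) called 46 genes (0.348%), 32 with a higher and 14 with a lower change in KO, and 1203 genes had an unadjusted p below 0.05. These counts were 16 and 8 with DESeq2, and 98 and 2 with library size alone.

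Txnip had the deeper fall in KO cells, where it had 106, 104 and 103 CPM at 4 h and 278, 259 and 254 CPM at 0 h, beside 129 and 122 CPM at 4 h and 199, 181 and 194 CPM at 0 h in WT cells. The KO change of -1.34 and the WT change of -0.61 differed by -0.73 ± 0.07 (SE, adjusted p = 1.8e-11). KO libraries were above WT libraries at 0 h and below them at 4 h. Rrad fell by 1.49 in KO and by 1.05 in WT, a difference of -0.43 ± 0.07 (SE, adjusted p = 4.98e-05). WT cells held 190 and 197 CPM of Rrad at 4 h and 371, 404 and 430 CPM at 0 h. Csf1, the macrophage growth factor, changed by -0.72 in KO and -0.19 in WT (difference -0.53 ± 0.10 (SE, adjusted p = 0.00223)). Cdkn1a, the cell cycle inhibitor p21, had 11.4, 12.6 and 13.1 CPM in KO cells at 4 h, against 15.9, 18.2 and 16.5 CPM at 0 h, beside 19.6 and 18.5 CPM at 4 h and 18.8, 17.3 and 16.7 CPM at 0 h in WT cells. It fell by 0.45 in KO and was not called in WT (0.11, adjusted p = 0.363), a difference of -0.56 ± 0.12 (SE, adjusted p = 0.0135). Ppp1r10, a nuclear regulator of protein phosphatase 1, and Arrdc3 completed the 5 lowest with a mean log2 CPM of at least 3, at -0.52 ± 0.10 (SE, adjusted p = 0.00339) and -0.46 ± 0.11 (SE, adjusted p = 0.0313). Single libraries decided some of these: without WT replicate 1 at 4 h the adjusted p was 0.13 for Csf1, 0.182 for Cdkn1a and 0.114 for Ppp1r10, and over 20 alternatives the call was lost in 2 for Csf1, 3 for Ppp1r10, 7 for Cdkn1a and 12 for Arrdc3. For Cdkn1a these included DESeq2 (adjusted p = 0.0725) and library size alone (adjusted p = 0.118). The call of Rrad was lost with library size alone (-0.28, adjusted p = 0.113).

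Among called genes with a mean log2 CPM of at least 3 over the KO and WT libraries at 0 and 4 h, the 5 with the highest change in KO relative to WT were Lyz2, Gadd45g, Apoe, H2-D1 and Tie1, and all 5 fell in WT cells. Lyz2, the lysozyme of macrophages, had 8.81, 9.41 and 9.11 CPM in KO cells at 4 h, against 9.52, 8.88 and 10.6 CPM at 0 h, and the KO times overlapped. WT cells had 11.4 and 9.43 CPM at 4 h and 27.8, 30.3 and 26.8 CPM at 0 h. The KO change of -0.08 (adjusted p = 0.632) and the WT change of -1.44 differed by 1.36 ± 0.15 (SE, adjusted p = 8.17e-09). Of the 18 macrophage and leukocyte genes, 7 had a higher change in KO by this test and 14 were called lower in WT. Mrc1, the macrophage mannose receptor, changed by -0.44 in KO and -2.02 in WT, a difference of 1.58 ± 0.23 (SE, adjusted p = 1.19e-05), and Cd163 differed by 1.32 ± 0.31 (SE, adjusted p = 0.0313), a call lost in 7 of 20 alternatives. The KO calls of Mrc1 and Cd163 were each lost without several single libraries, with adjusted p up to 0.136 for Mrc1 and 0.267 for Cd163. Apoe, the lipid carrier, had 26.8, 27.3 and 27.8 CPM in KO cells at 4 h, against 26.03, 26.3 and 30.5 CPM at 0 h, and 15.3 and 15.6 CPM at 4 h against 28.4, 29.3 and 26.05 CPM at 0 h in WT. Its difference was 0.83 ± 0.11 (SE, adjusted p = 4.96e-07). H2-D1, a class I antigen presenting molecule, fell by 0.35 in KO and by 1.13 in WT (difference 0.78 ± 0.11 (SE, adjusted p = 2.7e-06)).

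Gadd45g had 6.53, 6.55 and 7.26 CPM in KO cells at 4 h, against 13.6, 11.9 and 15.2 CPM at 0 h, and 7.18 and 5.6 CPM at 4 h against 26.9, 24.6 and 23.3 CPM at 0 h in WT. The levels at 4 h were close and those at 0 h were not, and the changes differed by 0.96 ± 0.16 (SE, adjusted p = 0.000206). Socs3 fell by 1.44 in KO and by 2.03 in WT (difference 0.59 ± 0.11 (SE, adjusted p = 0.00103)), and here too the levels at 0 h were apart, at 33.1 to 36.7 CPM in KO and 56.9 to 64.4 CPM in WT. Tie1, an endothelial receptor, fell by 1.43 in KO and by 2.14 in WT (0.72 ± 0.18 (SE, adjusted p = 0.0391)), and Cdh5 and Pecam1 differed by 0.61 ± 0.12 (SE, adjusted p = 0.00188) and 0.62 ± 0.14 (SE, adjusted p = 0.0165). The call of Tie1 was lost in 10 of 20 alternatives and that of Pecam1 in 5, among them without KO replicate 1 at 4 h (0.52, adjusted p = 0.155), while that of Cdh5 was kept in all 20. For the mitochondrial tRNAs, the difference between the changes was not called in any of the tested genes of the group. The AP-1 gene Fosl2 (-0.25, adjusted p = 0.489) and Nfkbia (-0.54, adjusted p = 0.272) were not called either, which does not show that their changes were alike.

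**Figure D5:**
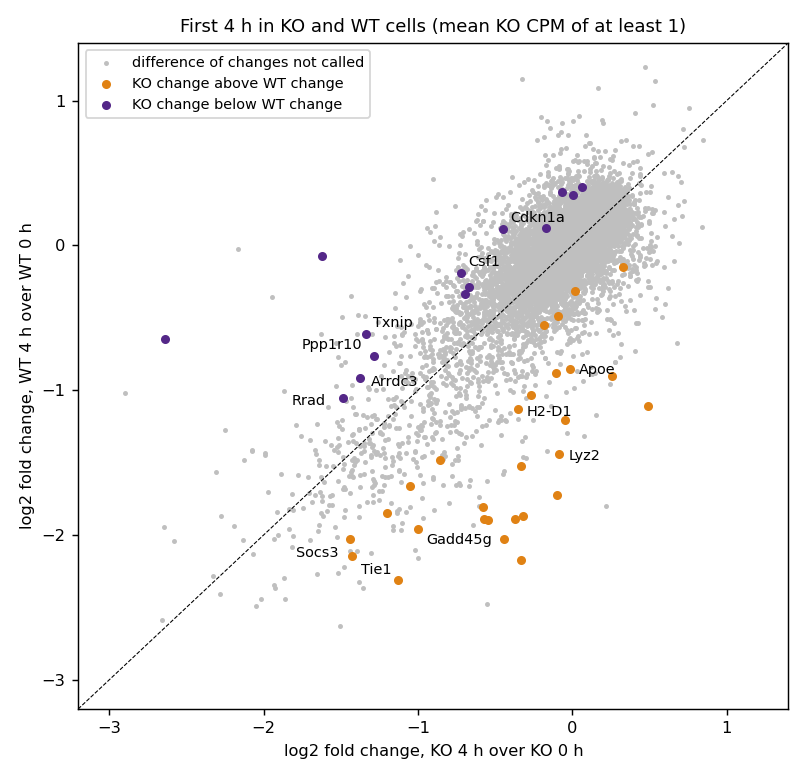
Log2 fold change from 0 to 4 h in KO cells (x axis) and in WT cells (y axis) for genes with a mean KO level of at least 1 CPM, with the line of equal change dashed. Orange genes have a higher and purple genes a lower change in KO by the test of the difference, and Lyz2, Apoe and H2-D1 lie below the line and Txnip, Csf1 and Cdkn1a above it.

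The levels at 8 h extend the early change. Rrad had 366 ± 20.3, 131 ± 2.16 and 102 ± 3.16 CPM at 0, 4 and 8 h (SD, n = 3 each). Most of the difference lay in the first 4 h. Txnip had 264 ± 12.6, 104 ± 1.33 and 86.3 ± 3.699 CPM at 0, 4 and 8 h (SD, n = 3 each), the same shape. Angptl4 was lower still at 8 h, with 20.98 ± 0.793, 5.28 ± 0.385 and 2.35 ± 0.2099 CPM at 0, 4 and 8 h (SD, n = 3 each), and so was Id2, with 15.1 ± 2.496, 5.24 ± 0.1401 and 2.97 ± 0.541 CPM at 0, 4 and 8 h (SD, n = 3 each). The mitochondrial tRNA gene mt-Ta had 32.3 ± 1.87, 6.44 ± 1.09 and 6.81 ± 0.884 CPM at 0, 4 and 8 h (SD, n = 3 each) and Socs3 34.8 ± 1.84, 12.8 ± 1.13 and 13.7 ± 0.263 CPM at 0, 4 and 8 h (SD, n = 3 each), so that neither mean was lower at 8 h than at 4 h. Fosl2 had 32.7 ± 2.298, 10.7 ± 1.23 and 11.5 ± 0.565 CPM at 0, 4 and 8 h (SD, n = 3 each). Of the rises, mt-Rnr1 had 4642 ± 289.7, 7836 ± 264 and 12346 ± 342 CPM at 0, 4 and 8 h (SD, n = 3 each) and mt-Rnr2 9827 ± 567, 12936 ± 377 and 21869.9 ± 746 CPM at 0, 4 and 8 h (SD, n = 3 each), both higher again at 8 h. No test was run on the 8 h libraries.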

How the data were processed

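RNA of isolated cardiomyocytes was extracted with TRIzol and RNeasy columns and sequenced by BGI on DNBseq, per the labels' protocols. The authors deposited raw counts per gene and a table of ratios to each genotype's baseline. Per the submitters' processing notes, STAR and featureCounts, with DESeq2 and limma, and the builds GRCm38 and mm10 were used, with versions, roles and the use of strand not given in the sources used here. Libraries were grouped by the labels. Counts of 17 libraries in 6 groups were fitted in 1 edgeR 4.0.16 model (R 4.3.3) after filterByExpr and TMM scaling. Quasi-likelihood tests compared 4 h with 0 h in KO and in WT, and the changes with each other, with Benjamini-Hochberg adjustment over 13230 genes and calls at 0.05. The standard error is the log2 fold change over the square root of F. The common coefficient of variation between libraries of a group, beyond counting error, was 5.28%, and it may be technical. The fit was tested on simulated counts.

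Members, lists, tests and alternatives were chosen with earlier results of these data known. Named genes were called, had a mean log2 CPM of at least 3 over the 6 KO libraries, a full name and no overlap between times: the 15 largest falls and 12 largest rises. Added were Mbnl1 to Mbnl3, Esr1, each list's called member with the largest fall and rise, and the 5 highest and 5 lowest interaction genes. Others were named after their values were seen. The 32 lists were counted without a set test. Symbols, positions and UTRs came from GENCODE M21, which held 99.5% of gene identifiers, and the longest coding transcript gave the UTR. No pair of libraries was a copy: squared differences were 1.3 to 2.11 times counting error. Alternatives were RLE factors, library size, ribosomal protein scaling, TMM without mitochondrial genes, 2 filters, a replicate block, compared groups only, DESeq2 1.42.0, limma 3.58.1 on log2(deposited ratio + 0.01), and leaving out each library.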

Additional observations from a re-analysis of the deposited data

Results flagged for a closer look

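The changes over the first 4 h differed between KO and WT cells for 17 named genes, by edgeR's test of the difference (KO change minus WT change on the log2 scale). Below 0, where KO cells had the lower change, lay Txnip at -0.73 (adjusted p = 1.8e-11), Cdkn1a at -0.56 (0.0135), Csf1 at -0.53 (0.00223), Ppp1r10 at -0.52 (0.00339), Arrdc3 at -0.46 (0.0313), Rrad at -0.43 (4.98e-05) and Xirp1 at -0.39 (0.000361). Above 0 lay the macrophage genes Mrc1 at 1.58 (adjusted p = 1.19e-05), Lyz2 at 1.36 (8.17e-09) and Cd163 at 1.32 (0.0313), with Gadd45g at 0.96 (0.000206), Apoe at 0.83 (4.96e-07), H2-D1 at 0.78 (2.7e-06) and Socs3 at 0.59 (0.00103). The endothelial genes were Tie1 at 0.72 (adjusted p = 0.0391), Pecam1 at 0.62 (0.0165) and Cdh5 at 0.61 (0.00188). The calls of Txnip, Mrc1, Lyz2, Gadd45g, Apoe, H2-D1, Socs3 and Cdh5 were kept under all 20 alternatives run. For Xirp1 the call was lost with library size alone, at -0.23 (adjusted p = 0.182). The levels of these macrophage and endothelial markers at 0 h were lower in KO than in WT cells for Lyz2 (8.88 to 10.6 against 26.8 to 30.3 CPM) and Cdh5 (27.9 to 33.4 against 43.7 to 46.7 CPM), and the part of this in the differences was not tested.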

How the results depend on the processing

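The KO counts of 1506 higher and 1787 lower genes became 19 and 4581 when ribosomal proteins set the scale, 870 higher under library size alone and 108 higher under the deposited ratios, whose KO 4 h libraries stood at 0.923 to 0.953 of the count ratio. The 2106 higher and 1671 lower genes in WT became 118 and 3186 under library size alone, 45 and 3001 when ribosomal proteins set the scale, and 1283 higher with no filter on low counts and 1262 with the compared groups only. The 32 higher and 14 lower interaction genes became 98 and 2 under library size alone, 20 and 8 when ribosomal proteins set the scale, and 16 and 8 in DESeq2. They were 57 higher with no filter, 23 lower with TMM without mitochondrial genes and 9 lower with the compared groups only. The cause was not tested. Leaving out 1 library gave 1133 to 1313 higher and 1458 to 1541 lower genes in KO, 1088 to 1951 higher and 1248 to 1545 lower in WT, and 18 to 34 higher and 4 to 20 lower interaction genes. Without a WT 4 h library, the lone library is assumed to vary like the other groups.

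KO libraries at 0 h and 4 h with equal replicate numbers did not deviate together over all tested genes (r of 0.0087, 0.00608 and 0.0128). Many genes with few counts enter these values, so they do not show whether equal numbers share a mouse or a preparation. The fit with the replicate block called 1540 higher and 1783 lower genes in KO, 2062 and 1610 in WT, and 34 and 14 interaction genes. Under the block the calls of mt-Atp8 (adjusted p = 0.074) and Col1a1 were lost.

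Of 161 named genes, 151 kept their direction in every setting, and 103 of 148 called ones kept direction and call. With ribosomal protein scaling the log2 fold change turned to -0.00264 for Zfp106, -0.198 for Mbnl1, -0.0902 for Myh6, -0.112 for Mbnl2, -0.0351 for Rbm24, -0.0632 for Il6st, -0.0861 for Pum2, -0.0815 for Fos and -0.166 for Egr1. Under the deposited ratios Mbnl1 was at -0.0704 and Egr1 at -0.0656. Apoe turned to 0.0195 with no filter, and ran from -0.0566 to 0.062 as single libraries were left out (0.062 without KO replicate 3 at 0 h). Mbnl1 ran from -0.0186 (without KO replicate 3 at 0 h) to 0.0513. Transcripts under about 1 CPM had few counts, and a small change there was not detectable at this depth.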
